A study of Homo sapiens with 2 samples.

Results

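Tubulin isotypes are the gene products from which microtubules are built, and the 10 examined here are the alpha isotypes TUBA1A, TUBA1B, TUBA1C and TUBA4A and the beta isotypes TUBB, TUBB2A, TUBB2B, TUBB3, TUBB4B and TUBB6. They were taken as a named set of genes, 10 of the 41582 genes with a symbol in the data, and not by a rule on their values. Earlier results of these data were known when the set was chosen. The data are mRNA sequencing of U87 cells, an established human glioblastoma line labelled as wild type, after 72 h with the curcumin analog CCA-1.1 or with the vehicle, DMSO. Each condition gave 1 library, so no difference below has a replicate error, and no test or p-value is given. The dose of CCA-1.1 used for sequencing is not given in the sources used here, and both libraries come from 1 cell line. Levels are in TPM, a unit that divides reads by transcript length and library total, so isotypes can be set side by side within a library but the read depth is unknown. Differences are log2((CCA-1.1 TPM + 1) / (DMSO TPM + 1)), which makes changes of low genes look smaller.

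Alpha and beta tubulin join as heterodimers, and the heterodimers assemble head to tail into microtubules, which carry cargo, shape the cell and form the mitotic spindle. The isotypes of a family are highly alike and differ most in the acidic tail at the carboxyl end, where enzymes add or remove modifications and where many motors and associated proteins bind. Cells also adjust tubulin mRNA to the pool of free dimers: when free tubulin rises, TTC5 binds the first residues of the nascent tubulin chain and, through SCAPER and the CCR4-NOT complex, the mRNA being translated is degraded. Drugs that bind tubulin are known to move tubulin mRNA by this route. TUBB3 is widely used as a neuronal marker and is also found in many tumours, TUBA1A and TUBB2B are linked to brain development, and TUBB is the broadly expressed beta isotype.

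The start of the coding sequence is shown because it encodes the residues that this autoregulation reads. The lines below give the first 30 coding bases of the transcripts of GENCODE v44lift37 that carry its MANE Select tag, with the first 4 codons in capitals. The alpha isotypes read as follows.
TUBA1A: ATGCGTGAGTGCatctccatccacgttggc
TUBA1B: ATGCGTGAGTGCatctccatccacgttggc
TUBA1C: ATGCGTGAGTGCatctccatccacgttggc
TUBA4A: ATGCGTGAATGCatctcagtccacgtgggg
The beta isotypes read as follows.
TUBB: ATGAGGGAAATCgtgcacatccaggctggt
TUBB2A: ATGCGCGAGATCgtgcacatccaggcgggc
TUBB2B: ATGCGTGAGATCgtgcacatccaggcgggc
TUBB3: ATGAGGGAGATCgtgcacatccaggccggc
TUBB4B: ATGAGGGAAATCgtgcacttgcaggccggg
TUBB6: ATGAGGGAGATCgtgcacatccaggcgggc
TUBA1A, TUBA1B and TUBA1C had the same first 4 codons, and over these 30 bases TUBA1A differed from neither TUBA1B nor TUBA1C at any position. TUBB and TUBB4B shared one set of 4 codons, TUBB3 and TUBB6 another, and TUBA4A, TUBB2A and TUBB2B each had their own. Within a family these sets differ in codons only. They encode the same residues, MREC in every listed alpha isotype and MREI in every listed beta isotype.

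The other end of the coding sequence is shown for the beta isotypes because it encodes their tail. The lines give the last 48 coding bases, with the stop codon in capitals.
TUBB: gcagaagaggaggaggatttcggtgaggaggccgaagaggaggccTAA
TUBB2A: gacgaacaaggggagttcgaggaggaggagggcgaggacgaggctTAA
TUBB2B: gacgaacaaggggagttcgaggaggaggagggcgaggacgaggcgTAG
TUBB3: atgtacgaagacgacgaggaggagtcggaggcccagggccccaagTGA
TUBB4B: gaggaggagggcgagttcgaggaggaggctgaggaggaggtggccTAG
TUBB6: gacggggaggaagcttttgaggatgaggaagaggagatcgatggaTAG
Over these 48 bases, compared position by position without alignment, TUBB2A and TUBB2B differed at 2 positions, and TUBB2A and TUBB3 differed at 24. Over the whole coding sequence, identity was 97.2% between TUBA1A and TUBA1B, 96.8% between TUBA1B and TUBA1C, and 98.1% between TUBB2A and TUBB2B. TUBA4A was 84.4% to 85.7% identical to the other alpha isotypes. Among beta isotypes outside the TUBB2A and TUBB2B pair, identity ranged from 81.0% for TUBB and TUBB6 to 87.7% for TUBB2A and TUBB3.

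Such likeness limits how firmly a level can be given to 1 isotype, since Kallisto, with which the authors quantified the reads, divides reads that match several transcripts by estimation. Kallisto matches reads by short stretches of fixed length, by default 31 bases, and the length used by the authors is not given in the sources used here. Of the 31-base stretches of TUBA1B, 65.6% were also found in transcripts of another listed isotype, and the shares were 62.5% for TUBA1A and 33.9% for TUBA1C. For TUBB2A the share was 62.9% and for TUBB2B 52.7%. TUBB3 followed with 16.8%, TUBB4B with 8.28% and TUBB6 with 6.11%. TUBB and TUBA4A shared least with the other listed isotypes, with 0.483% and 0.0991%. Counting transcripts of any other GENCODE gene, however, the shares were 42.9% for TUBB, where the pseudogene TUBBP1 holds 28.8% and ENSG00000272540 holds 20.5%, and 42.2% for TUBA4A, where the overlapping gene STK16 holds 29.6%. They were 93.4% for TUBA1B and 94.0% for TUBB3, and TUBB6 had the lowest share, 6.76%. GENCODE lists an antisense gene, TUBA1B-AS1, that holds 70.3% of the stretches of TUBA1B, and a further gene, ENSG00000198211, that holds 92.8% of those of TUBB3. The authors counted against RefSeq transcripts, whose sequences were not used here, so these shares describe the genes and not the authors' index. In RefSeq coordinates, TUBA4A overlaps STK16, which was at 11.4 TPM under DMSO and 10.6 TPM under CCA-1.1, and TUBB6 overlaps AFG3L2, at 73.6 TPM and 73.7 TPM. The strand setting of the counting is not given in the sources used here.

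Expression of the isotypes in U87 cells was uneven. TUBA1B, on chromosome 12 from 49127782 to 49131395 of GRCh38.p14, was the highest of the 10 in both libraries, at 1049 TPM under DMSO and 977 TPM under CCA-1.1. By mean TPM it ranked 113th among the 7906 protein-coding genes whose mean reached 10 TPM. TUBA1C, a neighbour of TUBA1B on chromosome 12, was at 414.42 TPM under DMSO and 414.15 TPM under CCA-1.1. TUBA1B was therefore 2.53 times as high as the next isotype in DMSO and 2.36 times as high in CCA-1.1.

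TUBB was the highest beta isotype, at 343 TPM under DMSO and 363 TPM under CCA-1.1. TUBB6, a broadly expressed isotype on chromosome 18, was at 295 TPM under DMSO and 285 TPM under CCA-1.1. TUBA4A, an alpha isotype on chromosome 2, was at 259.7 TPM and 245 TPM. Then came TUBB4B, on chromosome 9, at 249.6 TPM and 228 TPM, and TUBB3, on chromosome 16 from 89921925 to 89936097, at 216 TPM and 194 TPM. The order of all 10 isotypes was the same in both libraries, but without replicates it cannot be said which neighbours in it differ beyond error, and the TUBA4A and TUBB4B levels lay close together in DMSO.

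The lowest levels were those of TUBA1A, TUBB2A and TUBB2B. TUBA1A was at 128 TPM under DMSO and 129.6 TPM under CCA-1.1. TUBB2A was at 24.7 TPM and 23.2 TPM, and 66.5% of the 7906 protein-coding genes had a higher mean. TUBB2B was listed at 0 in both libraries. No fold is given for TUBB2B, and no limit follows from its 0, since TPM keeps no depth. Whether a listed 0 or near 0 is a lack of mRNA or a failed estimate was not tested. The gamma-tubulin complex gene TUBGCP3, at 0.35 TPM under DMSO and 0.60 TPM under CCA-1.1, was near 0 as well. So was TTC5, at 0.11 TPM and 0.06 TPM.

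**Figure D1:**
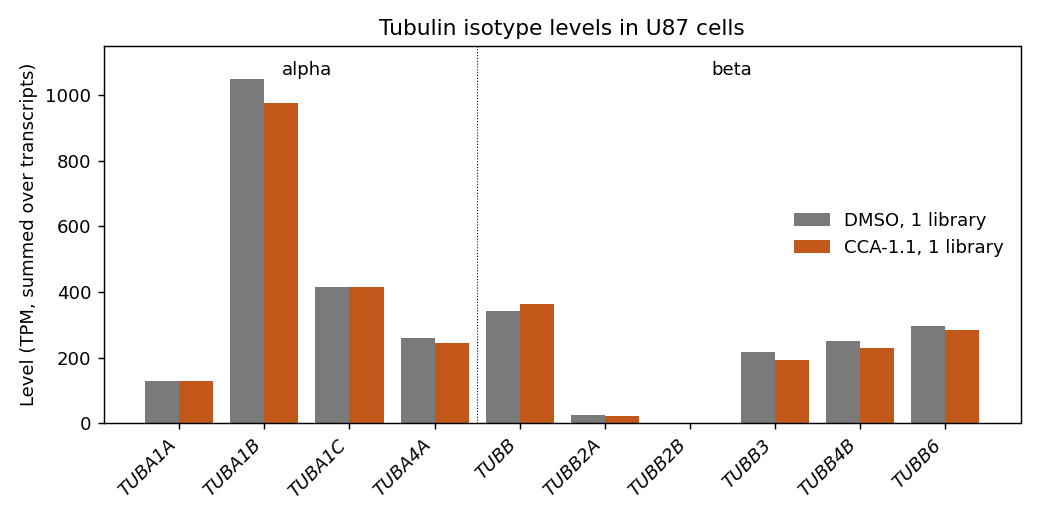
Level of each tubulin isotype in TPM, summed over its transcripts (vertical axis, from 0), in the DMSO library and the CCA-1.1 library, 1 library each with no error bars. TUBA1B stands highest at 1049 TPM and 977 TPM, TUBB2A is at 24.7 TPM and 23.2 TPM, and TUBB2B is listed at 0 in both.

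TUBB2A and TUBB2B make a close comparison, since their coding sequences are nearly the same, they lie on chromosome 6 only 66732 bases apart, and yet 1 was measured and the other was listed at 0. Of the 31-base stretches, 62.9% of those of TUBB2A occur in TUBB2B, and 52.7% of those of TUBB2B occur in TUBB2A. Kallisto divides reads from such stretches by estimation. The promoters of the pair are shown because they differ far more than the coding sequences. Neither the shared sequence nor the promoters were tested as a cause of the levels. Each window, from RefSeq on GRCh38.p14, runs from 250 bases before to 50 bases after the annotated start, on the minus strand, with capitals marking CCAAT or GGGCGG or TATAAA on either strand. The TUBB2A window is chr6:3157495-3157794.
TUBB2A: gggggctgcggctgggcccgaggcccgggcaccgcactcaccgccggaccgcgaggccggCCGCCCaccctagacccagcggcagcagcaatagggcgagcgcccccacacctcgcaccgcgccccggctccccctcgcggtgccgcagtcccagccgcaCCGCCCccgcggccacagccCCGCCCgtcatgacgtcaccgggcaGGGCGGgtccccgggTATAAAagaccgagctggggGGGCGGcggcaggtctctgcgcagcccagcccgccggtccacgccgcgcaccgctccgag
The TUBB2B window is chr6:3227604-3227903.
TUBB2B: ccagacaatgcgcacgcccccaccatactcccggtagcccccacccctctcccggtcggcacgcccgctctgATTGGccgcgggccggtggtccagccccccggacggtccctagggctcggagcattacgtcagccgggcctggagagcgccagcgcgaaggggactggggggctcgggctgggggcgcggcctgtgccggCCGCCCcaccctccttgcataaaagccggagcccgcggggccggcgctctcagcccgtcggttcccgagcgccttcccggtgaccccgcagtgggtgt
In a global alignment the windows were 52.2% identical, against 98.1% for the coding sequences. No unrelated pair of windows was aligned for comparison. The TUBB2A window held 5 GGGCGG matches and 1 TATAAA match and no CCAAT. The TUBB2B window held 1 GGGCGG and 1 CCAAT match and no TATAAA. Only exact matches were counted, and the TUBB2B window does hold CATAAA, which differs from TATAAA at 1 base. Among 27305 promoter windows of the same length, 44.6% held GGGCGG, 35.7% held CCAAT and 11.95% held TATAAA. Over the windows of the 10 isotypes, 5 held GGGCGG, 5 held CCAAT and 1 held TATAAA. These matches are a description of letters and do not show that a factor binds.

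None of the 9 isotypes with a value above 0 differed between the libraries by more than 2-fold, and none of them by more than 1.2-fold, which is 0.26 on the log2 scale. Among the 7906 protein-coding genes whose mean reached 10 TPM, 0.215% passed 2-fold and 13.5% passed 1.2-fold, so 0 of 9 is near the background at the first mark and the second mark would take about 1 of 9. The CCA-1.1 value was lower for 7 of the 9 and higher for 2, while 48.8% of the protein-coding genes were lower and 51.2% higher by any amount. The median difference of the 9 isotypes was -0.08, and that of the protein-coding genes was 0.0039, with 5th and 95th percentiles of -0.29 and 0.31.

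TUBB3 had the lowest difference, -0.16, and its CCA-1.1 level was 89.7% of its DMSO level. Of the protein-coding genes, 15.5% had a lower difference than TUBB3. TUBB4B had a difference of -0.13 and TUBA1B of -0.10, and these 3 isotypes lay below the lower quartile of the protein-coding genes, which was at -0.10. In absolute terms TUBA1B accounted for most of the gap between the libraries, with a CCA-1.1 minus DMSO value of -72.6 TPM out of -122.6 TPM for the 10 together.

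The other 6 lay between the quartiles of the protein-coding genes. TUBB2A had a difference of -0.09, TUBA4A of -0.08 and TUBB6 of -0.05. TUBA1C differed by -0.00094, so its levels were nearly equal, and TUBA1A differed by 0.01. TUBB had the highest difference, 0.08, and 68.5% of the protein-coding genes were below it. When TUBA1A, TUBA1B and TUBA1C were summed because of their shared sequence, the 3 together were at 1592 TPM under DMSO and 1521 TPM under CCA-1.1, differing by -0.07. This sum has the opposite sign to TUBA1A alone, so the direction of TUBA1A is uncertain.

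Summed over the family, the 4 alpha isotypes were at 1852 TPM under DMSO and 1766 TPM under CCA-1.1, differing by -0.07. The 6 beta isotypes were at 1129 TPM and 1092 TPM, differing by -0.05. All 10 together made up 0.298% of the DMSO library and 0.286% of the CCA-1.1 library. The ratio of alpha to beta TPM was 1.64 under DMSO and 1.62 under CCA-1.1. Adding the 12 other alpha and beta genes and pseudogenes of the table changes little, as they summed to 5.52 TPM under DMSO and 4.92 TPM under CCA-1.1.

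The make-up of the alpha family was nearly the same in both libraries. TUBA1B held 56.7% of the alpha sum in DMSO and 55.3% in CCA-1.1, and TUBA1C held 22.4% and 23.4%. TUBA4A held 14.02% and 13.9%, and TUBA1A held 6.93% and 7.34%. In the beta family TUBB held 30.4% under DMSO and 33.2% under CCA-1.1, the largest shift of any isotype at 2.79 percentage points. TUBB6 held 26.2% and 26.1%. TUBB4B held 22.1% and 20.9%, and TUBB3 held 19.1% and 17.7%, so both were lower in CCA-1.1 by a little over 1 percentage point. TUBB2A held 2.19% and 2.12%. With no replicates it is not known whether a shift of this size exceeds the spread between cultures.

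**Figure D2:**
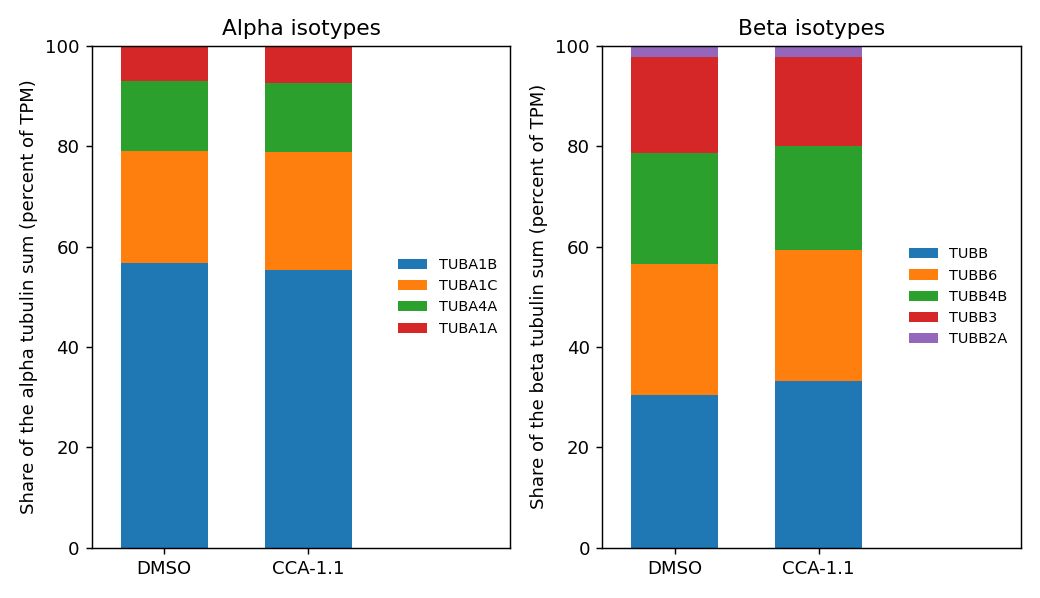
Share of each isotype in the TPM sum of its family (vertical axes, 0 to 100 percent), alpha at left and beta at right, for 1 DMSO library and 1 CCA-1.1 library. TUBA1B takes 56.7% and 55.3% of the alpha sum, and no single isotype takes more than 33.2% of the beta sum.

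The table lists 33 transcripts of the 10 genes, of which 3 were at 0 in both libraries. Most isotypes rested on 1 transcript. NM_006082.3 is the only transcript of TUBA1B and NM_006088.6 the only one of TUBB4B. NM_178014.4 held 97.7% of TUBB in DMSO and 97.6% in CCA-1.1, and NM_006086.4 held 96.8% and 97.6% of TUBB3. In TUBA1C, NM_001303114.1 was at 361 TPM in both libraries, and NM_032704.5 was at 53.6 TPM under DMSO and 52.6 TPM under CCA-1.1.

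TUBB6 was the exception, with 8 transcripts, all above 0. The highest, NM_032525.3, was at 141 TPM under DMSO and 146 TPM under CCA-1.1, which is 47.7% and 51.3% of the gene. NM_001303524.1 was at 31.9 TPM under DMSO and 21.2 TPM under CCA-1.1, differing by -0.57, while NM_001303528.2 was at 0.38 TPM and 1.62 TPM, differing by 0.92. Across all isotypes, 24 transcripts had a mean of at least 1 TPM, of which 5 passed 1.2-fold and 0 passed 2-fold. Among the 33433 transcripts with a symbol and such a mean, 45.6% passed 1.2-fold and 6.96% passed 2-fold.

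Markers were checked in the same libraries. The 9 glioblastoma markers, 7 of them with a mean of at least 1 TPM, summed to 4004 TPM under DMSO and 3694 TPM under CCA-1.1. Most of that sum was VIM, at 3217 TPM and 3106 TPM, with CD44 at 607 TPM and 473 TPM and TNC at 163 TPM and 96.7 TPM. The others were low. NES was at 7.53 TPM and 7.62 TPM, OLIG2 at 5.64 TPM and 7.03 TPM, and SOX2 at 1.87 TPM and 1.45 TPM. FABP7 was at 1.58 TPM and 1.70 TPM, GFAP was at 0.41 TPM and 0.57 TPM, and S100B was listed at 0 in both. The 4 neuronal markers, which matter for TUBB3, summed to 82.7 TPM under DMSO and 74.0 TPM under CCA-1.1, with SYP at 47.4 TPM and 43.2 TPM, SNAP25 at 22.0 TPM and 16.8 TPM, SYT1 at 11.4 TPM and 11.5 TPM, and RBFOX3 at 1.83 TPM and 2.45 TPM. Immune markers summed to 494 TPM and 397 TPM, nearly all of it CD68, with PTPRC at 0.09 TPM and 0.07 TPM and AIF1 listed at 0. Fibroblast markers summed to 248 TPM and 204 TPM, mostly LUM. Endothelial markers summed to 3.93 TPM and 3.23 TPM, and epithelial markers to 0.34 TPM and 0.22 TPM. Both libraries are of the U87 line, so a marker above 0 does not show that cells of another type were present. In bulk RNA, fewer cells expressing a gene and less of its RNA per cell cannot be told apart.

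Genes that act on tubulin are given next for members whose mean reached 1 TPM, and none of them passed 2-fold, against 0.341% of the 12041 protein-coding genes at that level. Of those protein-coding genes, 10.7% were higher and 7.03% lower past 1.2-fold, and their median difference was 0.02. Of the tubulins outside the 10, TUBG1 and TUBG2, which nucleate microtubules, differed by -0.08 (141 TPM under DMSO, 134 TPM under CCA-1.1) and -0.01 (75.2 TPM, 74.5 TPM). The delta and epsilon tubulins of centrioles, TUBD1 and TUBE1, differed by 0.12 (14.6 TPM, 15.9 TPM) and 0.04 (6.33 TPM, 6.52 TPM).

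The chaperonin CCT, which folds newly made tubulin and actin, had a median difference of 0.11 over its 8 subunit genes, of which 7 were higher in CCA-1.1, as were 53.8% of the protein-coding genes at that level. Of these, 1 passed 1.2-fold, CCT4, at 147 TPM under DMSO and 193 TPM under CCA-1.1, differing by 0.39. CCT2 followed with 113 TPM and 133 TPM, differing by 0.24, and CCT7 was at 66.4 TPM and 66.2 TPM. Prefoldin, which hands tubulin to CCT, had a median of 0.02 over 6 genes, with 0 past 1.2-fold. Its members ran from -0.20 for PFDN1 (78.3 TPM, 67.9 TPM) to 0.10 for PFDN4 (91.5 TPM, 98.3 TPM).

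The folding cofactors that assemble the dimer after CCT had a median of 0.0091 over 6 genes, with 0 past 1.2-fold. They ran from -0.21 for TBCD (14.02 TPM under DMSO, 11.99 TPM under CCA-1.1) to 0.19 for TBCE (10.9 TPM, 12.6 TPM), and both belong to the complex that joins alpha to beta tubulin. Of the autoregulation genes, 3 had a mean of at least 1 TPM and 0 passed 1.2-fold, with CNOT1, the scaffold of CCR4-NOT, at 82.2 TPM and 76.5 TPM and CNOT11 at 37.8 TPM and 38.2 TPM.

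Enzymes that modify tubulin had a median of -0.0099 over 13 genes, and 1 passed 1.2-fold. This was SVBP, the partner of the detyrosinating enzymes VASH1 and VASH2, at 45.7 TPM under DMSO and 35.4 TPM under CCA-1.1, differing by -0.36. TTL, which adds the terminal tyrosine back to alpha tubulin, was at 43.3 TPM and 48.5 TPM, differing by 0.16. AGTPBP1, which trims glutamate chains, differed by 0.20 (12.2 TPM, 14.3 TPM).

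Among the genes that destabilise or sever microtubules, the median was 0.04 over 9 genes, or -0.0061 over all 12 listed, and 2 were lower past 1.2-fold. STMN1, which sequesters tubulin dimers and is high in dividing cells, was at 64.9 TPM under DMSO and 46.2 TPM under CCA-1.1, differing by -0.48, the lowest in that list. The other was KIF2C, a mitotic depolymerase named after its value was seen, at 2.55 TPM and 1.95 TPM.

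Microtubule-associated and plus-end proteins had a median of -0.04 over 16 genes, and 2 were higher past 1.2-fold, both low in level and named after their values were seen. DCLK1 was at 4.39 TPM under DMSO and 6.54 TPM under CCA-1.1, and MAP2, a dendritic protein of neurons, was at 5.07 TPM and 6.47 TPM. The abundant MAP1B was at 245 TPM and 219 TPM, differing by -0.16, and MAP1A was at 61.1 TPM and 51.3 TPM, differing by -0.25. The gamma-tubulin ring complex had a median of 0.03 over 10 genes and 0 past 1.2-fold. Its highest difference was 0.25, for MZT1 (44.4 TPM, 52.9 TPM).

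Proliferation genes had the lowest median of the lists. Of 11 with a mean of at least 1 TPM, all 11 were lower in CCA-1.1 (46.0% of the protein-coding genes at that level were), 7 of them past 1.2-fold, where 7.03% of the protein-coding genes were lower by that much, and the median difference was -0.36. TPX2, which organises spindle microtubules, was at 19.6 TPM under DMSO and 13.5 TPM under CCA-1.1, differing by -0.51. AURKA, the kinase that TPX2 activates, was at 18.7 TPM and 14.4 TPM, differing by -0.36. CCNB1 was at 14.7 TPM and 13.6 TPM, differing by -0.11. The 16 listed genes summed to 90.9 TPM under DMSO and 69.9 TPM under CCA-1.1. Their median difference was -0.27, and 3 of them reached a mean of 10 TPM. Of the genes below 1 TPM, CCNA2 and CENPF were higher in CCA-1.1, and MKI67, KIF20A and CENPE were lower. Of the 9 isotypes, 7 were lower in CCA-1.1, as were 48.8% of the protein-coding genes reaching 10 TPM. TUBA1C is among the 7 by only -0.00094. The median of the 9 was -0.08, and 0 of them passed 1.2-fold. The part of proliferation in the isotype differences was not tested.

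**Figure D3:**
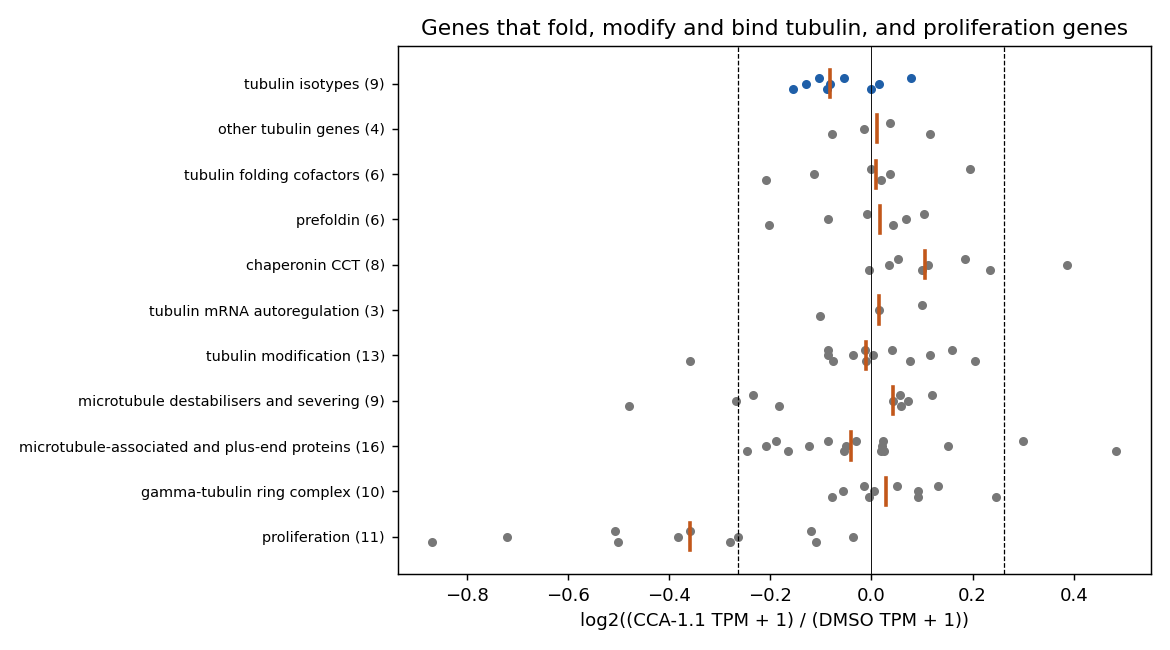
Difference of each gene with a mean of at least 1 TPM (points, log2((CCA-1.1 TPM + 1) / (DMSO TPM + 1)) on the horizontal axis), by gene list, with the list median as an orange bar and 1.2-fold as dashed lines. The 9 tubulin isotypes lie between the lines, while 7 of 11 proliferation genes lie below the lower line and 1, KIF11, lies on it.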

How the data were processed

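The 2 libraries, U87 cells with DMSO or CCA-1.1 for 72 h, were enriched for mRNA and sequenced by the authors, who checked reads with FastQC 0.11.9 and MultiQC 1.1 per the labels and quantified transcripts with Kallisto against GRCh38.p14. The deposited values are TPM per transcript, with columns that sum to 999999 and 1e+06, and the authors tested differential expression with edgeR, which was not used here because TPM are not counts and there was 1 library per condition.

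Transcripts were matched to RefSeq gene symbols of GRCh38.p14 with versions ignored (169966 of 177816), and TPM was summed per gene. Depth is unknown, so no interval or detection limit is given. Differences used a pseudocount of 1 TPM, and marks of 2-fold and 1.2-fold were applied to them. The 2-fold mark is only the fold part of the authors' criterion, which also took a p-value from edgeR. The background was all protein-coding genes reaching a mean of 10 TPM, or of 1 TPM for gene lists. Where no member of a gene list passed 2-fold, genes were named from up to 2 of the highest and 2 of the lowest differences among members reaching a mean of 10 TPM, and tubulins outside the 10 were named from 1 TPM. Members and lists were chosen with earlier results of these data known. Some items under this rule are left out here. Sequence came from GENCODE v44lift37 transcripts and RefSeq promoters. The calculation of differences was run on simulated data with added changes far larger than the isotype differences. That run checks the arithmetic only. Alternatives were other pseudocounts, median-ratio scaling, other transcript sets and other minimum levels. Python 3.11.15, numpy 2.4.6, pandas 2.3.3, Biopython 1.88 and matplotlib 3.10.9 were used.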

Additional observations from a re-analysis of the deposited data

How the results depend on the processing

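No paired analysis was possible because each condition has a single library, and for the same reason no library could be left out. Of 221 recomputed values, 219 stayed within tolerance, which was 0.11 on the log2 scale (0.5 times the interquartile range of protein-coding genes), 1 percentage point for shares and 1.5 times for counts and percentages. The exceptions were the percentage of genes past 2-fold, 0.341% with a minimum mean of 1 TPM and 1.53% over all genes with a symbol, against 0.215%. These alternatives include lower genes. The log2 tolerance exceeds the size of every isotype difference except those of TUBB3 and TUBB4B, so a change of sign can stay within it. Shares cannot move under median-ratio scaling. The count of values within tolerance is therefore a weak check. The 58 recomputed isotype differences covered pseudocounts of 0.1 and none, median-ratio scaling with a ratio of 1.003, curated, mRNA or versioned transcripts and sums over alike isotypes. None moved by more than 0.08, and 1 changed sign, TUBA1A, at -0.07 when summed with TUBA1B and TUBA1C. Of 40 recomputed medians of gene lists, 5 changed sign, all within tolerance. Over all members, the medians were -0.01 for other tubulin genes, -0.03 for autoregulation genes and -0.0061 for destabilisers, against 0.01, 0.01 and 0.04, and with a minimum mean of 10 TPM those of the first and second of these lists were -0.01 and -0.04. The number of isotypes past 1.2-fold was 0 under each of these settings except the sums, where it was not counted. Without TUBA1B, an alternative chosen after seeing the data, the sum over the isotypes differed by -0.04 in place of -0.06. The unknown depth limits the low levels most, those of TUBB2A and TUBB2B.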
